A study of Mus musculus with 4 samples.

Results

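The comparison set 1 RNA-seq library labelled DKO against 1 library labelled Isl1CKO, both from the mouse cochleovestibular ganglion at embryonic day 11.5, and asked what the added Pou4f1 label goes with. Every gene symbol that reached 1 TPM (a level scaled for gene length and for the library's total, which is the same in each library) in either library was compared, after rows of the same symbol were summed. This gave 14678 genes of the 25239 symbols in the deposited tables. The study deposited 4 libraries, 1 for each genotype label: DKO, Isl1CKO, Pou4f1KO and control. By their names, DKO lacks both factors, Isl1CKO lacks Isl1 through a conditional allele, and Pou4f1KO lacks Pou4f1 alone. The compared pair thus shares the Isl1 label and differs by the Pou4f1 label. All 4 libraries were made from total RNA of dissected and frozen ganglia. The Cre driver of the conditional allele, the strain, the number of embryos behind a library and their sex are not given in the sources used here. There were no replicates, so no difference below has a replicate check or a p-value; only sizes are given.

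POU4F1 (BRN3A) is a POU-homeodomain transcription factor that is switched on as sensory neurons leave the cell cycle, and ISL1 is a LIM-homeodomain factor made in the same cells. In mouse somatosensory ganglia both are known to turn off early neurogenic genes and to turn on genes of sensory subtypes. The cochleovestibular ganglion holds the young neurons of hearing and balance, which leave the otic epithelium by delamination and send processes to the ear and the hindbrain.

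Aligned sequence came to 16.1 gigabases in DKO and 13.6 gigabases in Isl1CKO, and a gene at 1 TPM was covered 5.83 and 4.95 times on average in DKO and Isl1CKO. Pou4f1 (mm10 chromosome 14, 104462325 to 104467999, minus strand) stood at 14.6 TPM in DKO against 188 TPM in Isl1CKO, a log2 ratio of −3.60, and at 16.6 TPM in Pou4f1KO against 146 TPM in control, a log2 ratio of −3.06. Both libraries whose label includes Pou4f1 were low and both others were high. Isl1 (chromosome 13, 116298270 to 116309688, minus strand) stood at 579 TPM in DKO and 854 TPM in Isl1CKO, and at 340 TPM in Pou4f1KO and 450 TPM in control. The 2 libraries whose label marks Isl1 as deleted thus held the highest Isl1 values. This goes against those labels at the level of the whole gene. A deletion of some exons can leave the rest of the transcript in place, and the tables hold no values per exon, so the Isl1 label could not be checked. The names DKO and Isl1CKO below mean the libraries labelled DKO and labelled Isl1CKO. Log2 ratios are of TPM + 1, DKO over Isl1CKO unless another pair is named, and understate the differences of weakly expressed genes.

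Of the 14678 compared genes, 185 (1.26%) were at least 2-fold lower and 131 (0.892%) at least 2-fold higher in DKO than in Isl1CKO, which is 2.15% in all. The median log2 ratio was 0.01 and the quartiles were −0.09 and 0.12, so most genes stood at nearly the same level in both libraries. Among the lower genes 149 were protein coding in GENCODE M21, and 123 had at least 5 TPM in Isl1CKO. In DKO 57 of the 185 were under 1 TPM and 9 were listed at 0. Among the higher genes 90 were protein coding, 70 had at least 5 TPM in DKO, 50 were under 1 TPM in Isl1CKO and 13 were listed at 0 there. Of all 14678 compared genes, 13348 were protein coding and 11834 had at least 5 TPM in DKO or Isl1CKO. Both shares were larger than among the lower or the higher genes. The lower genes had a median level of 8.16 TPM in Isl1CKO, and 8 of them reached 100 TPM there. The higher genes had a median level of 5.72 TPM in DKO, and 3 reached 100 TPM. In these bulk libraries, fewer cells of a type and less RNA per cell cannot be told apart.

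**Figure D1:**
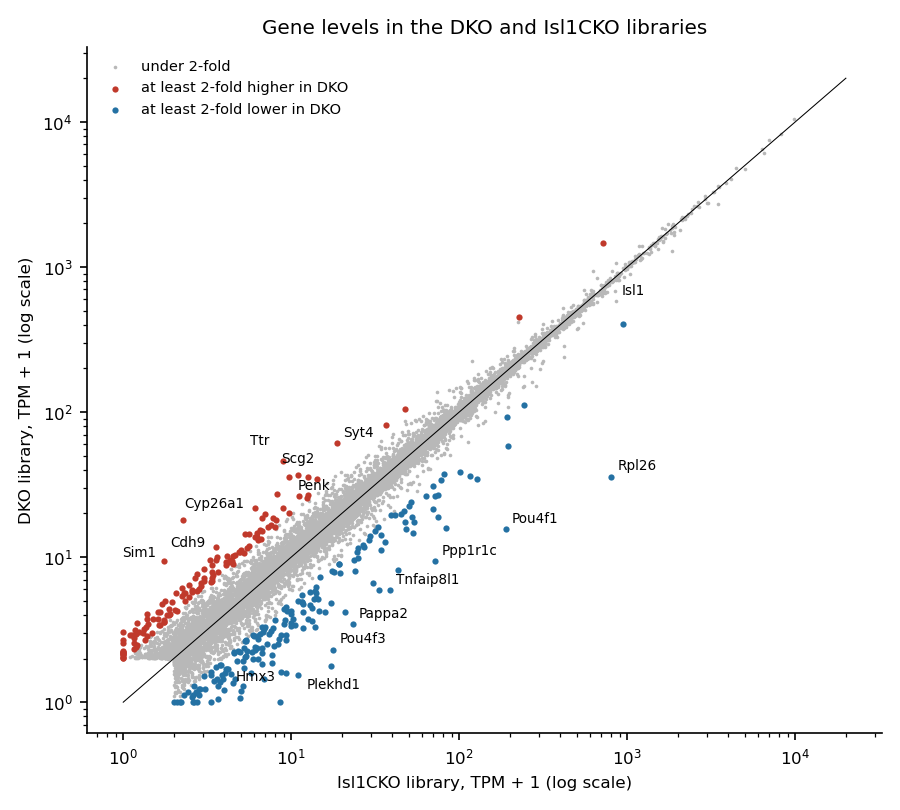
Each point is 1 of the 14678 compared genes, with its level in the Isl1CKO library on the x axis and in the DKO library on the y axis, both as TPM + 1 on log scales; the line marks equal levels. Blue points are the 185 genes at least 2-fold lower and red points the 131 at least 2-fold higher in DKO, and Pou4f1 lies at 14.6 TPM in DKO against 188 TPM in Isl1CKO.

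The POU4 family itself was lower in DKO. Pou4f3, a paralog known from hair cells, stood at 1.31 TPM in DKO and 16.7 TPM in Isl1CKO (log2 ratio −2.94). Pou4f2, a paralog known from retinal ganglion cells, stood at 0.0605 TPM in DKO and 3.93 TPM in Isl1CKO (−2.22). The ISL1 paralog gene Isl2 was at 111 TPM in DKO and 241 TPM in Isl1CKO (−1.11). Thus 4 of the 11 listed POU4 and ISL1 partner factors, Pou4f1 included, were lower. The 2 higher ones were Lmo3, a LIM-only factor gene (7.79 TPM in DKO, 2.38 TPM in Isl1CKO, log2 ratio 1.38), and Ldb2, which encodes a LIM-domain-binding cofactor (12.8 and 5.23 TPM in DKO and Isl1CKO, 1.15). Its paralog Ldb1, much more abundant, was at 298 TPM in DKO and 311 TPM in Isl1CKO.

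Near Pou4f1, the long non-coding RNA gene D130009I18Rik (chromosome 14, 104639144 to 104966783, plus strand, 171 kb from Pou4f1) was lower as well. It stood at 0.764 TPM in DKO and 16.4 TPM in Isl1CKO, a log2 ratio of −3.30, and at 0.490 TPM in Pou4f1KO and 12.1 TPM in control, −3.14. It was under 1 TPM in both libraries whose label includes Pou4f1. The other 6 measured genes within 1 Mb of Pou4f1 differed little between DKO and Isl1CKO: Rnf219, 10 kb away, had a log2 ratio of 0.22, and Scel, Slain1, Ednrb, Rbm26 and Ndfip2 lay between −0.10 and 0.28. In the other pair Scel was higher, at 4.26 TPM in Pou4f1KO and 1.54 TPM in control (1.05). The remaining neighbours had log2 ratios of Pou4f1KO over control between 0.1 and 0.42.

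Promoters from RefSeq (GRCm38.p6, 250 bases before to 50 bases after each start) were available for 11265 of the compared genes and for 80 of the 107 genes that were at least 2-fold lower both in DKO than in Isl1CKO and in Pou4f1KO than in control. They were searched on both strands for ATNNTTAAT, a POU4F1-type motif, and TAATTA, the homeodomain core, which may overlap each other. ATNNTTAAT occurred in 3 of the 80 promoters (3.75%), against 163 of 11265 (1.45%). TAATTA occurred in 5 of 80 (6.25%), against 268 of 11265 (2.38%). For genes at least 2-fold higher in DKO than in Isl1CKO, ATNNTTAAT occurred in 3 of 78 promoters (3.85%) and TAATTA in 2 (2.56%). For genes higher in both pairs these were 1 of 18 (5.56%) and 0 of 18. The share of ATNNTTAAT was thus not particular to the lower genes. The 3 promoters of genes lower in both pairs with ATNNTTAAT, chosen after the matches were seen, are printed 5′ to 3′ with every match to either motif in capitals. The promoter of Plekhd1, a gene lower in both pairs whose window holds neither motif, is printed beside them. They are those of D130009I18Rik (chr14:104638894-104639193, plus strand, match starting 78 bases before the start site), Hrk (chr5:118169514-118169813, plus strand, 60 bases before), Taar5 (chr10:23970456-23970755, plus strand, 104 bases before) and Plekhd1 (chr12:80692351-80692650, plus strand).
D130009I18Rik: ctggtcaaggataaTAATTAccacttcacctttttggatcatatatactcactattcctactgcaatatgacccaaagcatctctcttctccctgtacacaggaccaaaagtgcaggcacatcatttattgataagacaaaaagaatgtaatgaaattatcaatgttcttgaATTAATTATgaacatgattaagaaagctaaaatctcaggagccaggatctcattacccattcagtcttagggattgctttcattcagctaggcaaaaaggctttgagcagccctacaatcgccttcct
Hrk: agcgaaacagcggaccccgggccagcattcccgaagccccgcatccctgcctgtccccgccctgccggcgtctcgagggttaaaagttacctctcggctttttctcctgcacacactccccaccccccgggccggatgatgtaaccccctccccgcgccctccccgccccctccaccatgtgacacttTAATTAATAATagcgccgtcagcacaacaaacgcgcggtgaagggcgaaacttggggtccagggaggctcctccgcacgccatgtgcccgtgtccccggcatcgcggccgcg
Taar5: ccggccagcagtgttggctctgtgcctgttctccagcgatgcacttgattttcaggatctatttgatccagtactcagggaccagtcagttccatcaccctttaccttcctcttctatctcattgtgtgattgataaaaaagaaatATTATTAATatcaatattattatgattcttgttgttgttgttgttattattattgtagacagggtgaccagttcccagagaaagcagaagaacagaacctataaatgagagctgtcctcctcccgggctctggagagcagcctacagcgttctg
Plekhd1: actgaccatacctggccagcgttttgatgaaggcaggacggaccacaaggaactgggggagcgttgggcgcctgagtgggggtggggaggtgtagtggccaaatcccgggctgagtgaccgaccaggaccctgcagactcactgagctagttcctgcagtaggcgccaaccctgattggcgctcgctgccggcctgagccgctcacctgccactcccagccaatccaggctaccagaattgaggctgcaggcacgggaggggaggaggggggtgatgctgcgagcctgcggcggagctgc
In Hrk the matches to both motifs overlap. In D130009I18Rik the second capital run holds both motifs and the first holds TAATTA alone. Of other genes lower in both pairs, Pou4f1, Pappa2 and Fam160a1 held no match in their windows, which says only that these letters are not there; the promoter of Pou4f3 was not used here. A match is a description of the sequence, not a binding site.

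By the rule that took the lowest ratios among genes with at least 5 TPM in 1 of the pair, Pou4f1 and Pou4f3 came first. Ppp1r1c, which encodes an inhibitor of protein phosphatase 1, was at 8.42 TPM in DKO and 70.9 TPM in Isl1CKO (log2 ratio −2.93). Plekhd1 was at 0.549 TPM in DKO and 10.02 TPM in Isl1CKO (−2.83). Pappa2, which encodes a protease that cleaves IGF-binding proteins, was at 2.44 TPM in DKO and 22.2 TPM in Isl1CKO (−2.75). These 3 were also low in Pou4f1KO, at 22.7, 0.673 and 2.03 TPM for Ppp1r1c, Plekhd1 and Pappa2, against 100.5, 11.9 and 23.3 TPM in control. Among them, Plekhd1 and Pappa2 stood at about the same low level in DKO and Pou4f1KO, whereas Ppp1r1c was lower in DKO than in Pou4f1KO.

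Tnfaip8l1, a gene of the TNFAIP8 family, was at 4.91 TPM in DKO and 37.8 TPM in Isl1CKO (−2.71), and Tmem163, which encodes a zinc transporter, at 4.92 and 32.2 TPM in DKO and Isl1CKO (−2.49). The otic homeobox gene Hmx3 was at 0.593 TPM in DKO and 8.30 TPM in Isl1CKO (−2.55). Fam160a1 was at 0.603 TPM in DKO and 7.71 TPM in Isl1CKO (−2.44), and the lectin gene Clec18a at 0.454 and 5.85 TPM in DKO and Isl1CKO (−2.24). In Pou4f1KO all 5 lay between 0.464 and 6.66 TPM, against 4.95 to 28.6 TPM in control. Tafa2, which encodes a secreted chemokine-like protein, was at 5.61 TPM in DKO and 29.8 TPM in Isl1CKO (−2.22). Nrn1, which encodes neuritin, a membrane-anchored factor of neurite growth, was at 18.05 TPM in DKO and 73.6 TPM in Isl1CKO (−1.97), and its ratio Pou4f1KO over control, −0.92, was the only one of the 14 lowest short of 2-fold. The bicarbonate cotransporter gene Slc4a4 was at 0.832 TPM in DKO and 5.69 TPM in Isl1CKO (−1.87), with a log2 ratio of −2.03 for Pou4f1KO over control.

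**Figure D2:**
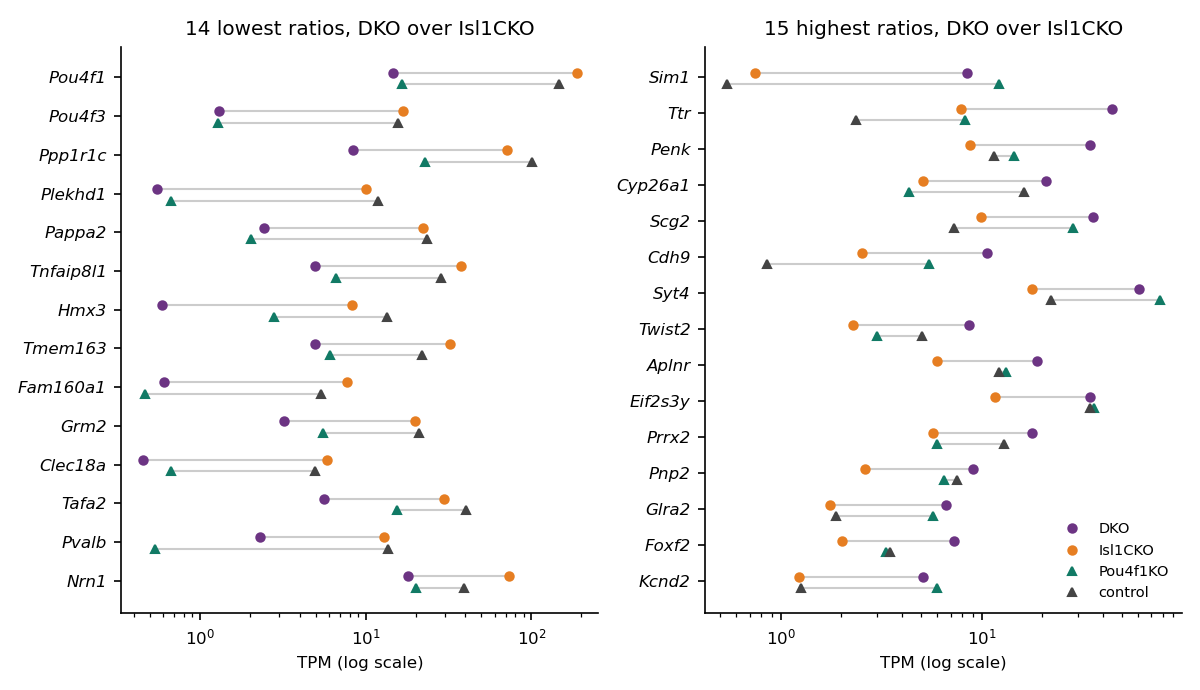
TPM on a log scale for the 14 genes with the lowest (left) and the 15 with the highest (right) log2 ratios of DKO over Isl1CKO; circles are DKO and Isl1CKO and triangles Pou4f1KO and control, with a grey line joining each pair. On the left both pairs separate in the same direction for all 14 genes, whereas on the right Cyp26a1, Twist2 and Prrx2 run opposite ways and Eif2s3y, Foxf2 and Aplnr separate in DKO and Isl1CKO but hardly in the other pair.

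Genes of sensory subtypes made up part of the lower side. Of 25 listed somatosensory ganglion genes 19 were measured, and 5 were lower and none higher, around a median log2 ratio of 0.08 that became −0.04 without the filter on low values. Pvalb, which encodes the calcium buffer parvalbumin, was at 2.30 TPM in DKO and 12.9 TPM in Isl1CKO (−2.07), and at 0.535 TPM in Pou4f1KO and 13.7 TPM in control. The homeobox gene Prrxl1 (Drg11) was at 0.292 TPM in DKO and 4.17 TPM in Isl1CKO (−2.0). Avil, which encodes the actin regulator advillin of sensory neurons, was at 0.934 TPM in DKO and 4.19 TPM in Isl1CKO (−1.42). Runx1, a transcription factor gene of nociceptors, was at 1.06 TPM in DKO and 4.27 TPM in Isl1CKO (−1.36). The other 14 measured members did not differ by 2-fold, among them the ATP receptor gene P2rx3, at 313 TPM in DKO and 296 TPM in Isl1CKO.

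Sodium and potassium channels were the second neuronal group with lower members. Of 43 measured voltage-gated channel genes 5 were lower and 1 higher, and the median was −0.01, or 0.03 under pan-neuronal scaling, which sets the geometric mean of the pan-neuronal genes equal in all libraries. Scn9a, which encodes the sodium channel NaV1.7 of sensory neurons, was at 14.6 TPM in DKO and 47.3 TPM in Isl1CKO (−1.63), and at 41.0 TPM in Pou4f1KO and 66.8 TPM in control (−0.69). Its neighbour Scn7a was at 4.85 TPM in DKO and 12.9 TPM in Isl1CKO (−1.25). The potassium channel gene Kcna1 was at 1.72 TPM in DKO and 7.44 TPM in Isl1CKO (−1.63), and the calcium channel subunit gene Cacna2d2 at 3.26 TPM in DKO and 8.93 TPM in Isl1CKO (−1.22). In the opposite direction, Kcnd2, which encodes an A-type potassium channel, was at 5.09 TPM in DKO and 1.23 TPM in Isl1CKO (1.45), and at 5.96 TPM in Pou4f1KO and 1.26 TPM in control. Asic1, an acid-sensing channel gene outside the list and chosen after its values were seen, was at 37.8 TPM in DKO and 99.7 TPM in Isl1CKO (−1.38).

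Among 32 measured transmitter genes 1 was lower and 3 were higher, with a median of 0.23. The lower one was Slc17a6, the gene of the glutamate transporter VGLUT2 of synaptic vesicles, at 17.8 TPM in DKO and 51.6 TPM in Isl1CKO (−1.48), and at 20.7 TPM in Pou4f1KO and 51.0 TPM in control. Slc17a7, which encodes VGLUT1, was at 40.1 TPM in DKO and 38.6 TPM in Isl1CKO, so in DKO it was the more abundant of the pair. The 3 higher members were receptor genes, and the 28 members within 2-fold included other receptor genes. Grin3a, an NMDA receptor subunit gene, was at 26.1 TPM in DKO and 7.20 TPM in Isl1CKO (1.72). The kainate receptor gene Grik1 was at 8.32 and 3.27 TPM in DKO and Isl1CKO (1.13), and the glycine receptor gene Glra2 at 6.63 and 1.76 TPM (1.47). Ppp3r2, which lies within Grin3a, was near 0, and the sum of both rows had a log2 ratio of 1.71. Grm2, a metabotropic glutamate receptor gene that the list does not hold, was lower, at 3.22 TPM in DKO and 19.8 TPM in Isl1CKO (−2.30).

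Neuropeptide and dense-core vesicle genes went both ways, with 3 higher and 3 lower of 20 measured and a median of 0.10. Scg2, which encodes a granin of secretory vesicles, was at 35.6 TPM in DKO and 9.92 TPM in Isl1CKO (1.75), and at 28.5 TPM in Pou4f1KO and 7.28 TPM in control (1.83). Npy, which encodes neuropeptide Y, was at 15.7 TPM in DKO and 6.62 TPM in Isl1CKO (1.13). The enkephalin precursor gene Penk was at 34.6 TPM in DKO and 8.76 TPM in Isl1CKO (1.87), but at 14.5 TPM in Pou4f1KO and 11.5 TPM in control (0.31). The lower members were the prohormone convertase genes Pcsk1 (−1.04) and Pcsk2 (−1.03) and Adcyap1 (−1.12), which encodes the peptide PACAP. Pcsk2, the most abundant of these, was at 15.2 TPM in DKO and 32.0 TPM in Isl1CKO.

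Most general neuronal genes stood close together. Of 31 pan-neuronal genes 29 lay within 2-fold, with a median of −0.04, or 0.02 under pan-neuronal scaling; their summed level was 18331 TPM in DKO and 20257 TPM in Isl1CKO. Tubb3, which encodes a neuronal tubulin, was at 2757 TPM in DKO and 3017 TPM in Isl1CKO. The exceptions were Syt4, a vesicle protein gene, at 60.4 TPM in DKO and 17.8 TPM in Isl1CKO (1.71), and Cntn2, which encodes an axonal adhesion molecule, at 32.7 TPM in DKO and 77.0 TPM in Isl1CKO (−1.21). Of 35 otic neurogenesis and ganglion factors 2 were lower, Runx1 and the nuclear receptor gene Esrrg (21.6 TPM in DKO, 49.1 TPM in Isl1CKO, −1.15), and none was higher, around a median of 0.08. Neurod1, a proneural factor gene of the ganglion, was at 941 TPM in DKO and 814 TPM in Isl1CKO, and Gata3, needed in cochlear neurons, at 9.43 TPM in DKO and 7.39 TPM in Isl1CKO. None of 46 axon guidance genes (median 0.01) and none of 19 neurotrophic genes (median −0.11) reached 2-fold. The neurotrophic gene nearest to it was Ntrk2, which encodes the BDNF receptor TrkB, at 27.5 TPM in DKO and 55.2 TPM in Isl1CKO (−0.98).

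Survival and cell state genes differed little between the libraries. Of 25 BCL2 family and caspase genes 24 lay within 2-fold (median 0.02), and 1 was lower: Hrk, a BH3-only gene of neurons whose product promotes cell death, at 3.70 TPM in DKO and 11.97 TPM in Isl1CKO (−1.47), and at 3.70 TPM in Pou4f1KO and 9.42 TPM in control (−1.15). Its promoter is among those printed above. No member reached 2-fold among 23 p53 target genes (median 0.02), 30 proliferation genes (−0.03), 22 Notch genes (−0.01), 24 glycolysis genes (−0.05) or 21 immediate-early genes (0.19). The medians of the proliferation, Notch and glycolysis genes became 0.03, 0.05 and 0.02 under pan-neuronal scaling, which moved the median of all compared genes to 0.08.

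On the higher side, the largest ratio under the naming rule was that of Sim1, a bHLH-PAS transcription factor gene. It was at 8.44 TPM in DKO and 0.746 TPM in Isl1CKO (2.43), and at 12.2 TPM in Pou4f1KO and 0.538 TPM in control (3.11). Ttr, which encodes the thyroid hormone carrier transthyretin, was at 44.8 TPM in DKO and 7.92 TPM in Isl1CKO (2.36). The cadherin gene Cdh9 was at 10.7 TPM in DKO and 2.55 TPM in Isl1CKO (1.72), and at 5.49 TPM in Pou4f1KO and 0.853 TPM in control. C1ql3, which encodes a secreted synaptic protein of the C1q family, was the most abundant gene named for being higher in both pairs, at 105 TPM in DKO and 46.6 TPM in Isl1CKO (1.15), and at 123 TPM in Pou4f1KO and 53.9 TPM in control (1.18). The adrenergic receptor gene Adra1b (1.17) and Angpt1, which encodes the TIE2 ligand angiopoietin 1 (1.38), were also higher in DKO, with log2 ratios Pou4f1KO over control of 1.47 and 1.30.

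Other genes among the 15 highest were not higher in Pou4f1KO than in control to the same extent. Aplnr, which encodes the apelin receptor, was at 18.9 TPM in DKO and 5.97 TPM in Isl1CKO (1.51), and at 13.2 TPM in Pou4f1KO and 12.2 TPM in control (0.10). Foxf2, a forkhead gene of mesenchyme, was at 7.31 TPM in DKO and 2.03 TPM in Isl1CKO (1.46), and at 3.35 TPM in Pou4f1KO and 3.48 TPM in control (−0.04). Pnp2, a purine nucleoside phosphorylase gene, was at 9.03 TPM in DKO and 2.61 TPM in Isl1CKO (1.47), and at 6.48 TPM in Pou4f1KO and 7.57 TPM in control (−0.20). For these 3 genes Isl1CKO was the lowest of the 4 libraries.

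Of the genes named for opposite signs, Cyp26a1, which encodes an enzyme that degrades retinoic acid, was at 21.0 TPM in DKO and 5.07 TPM in Isl1CKO (1.85), and at 4.33 TPM in Pou4f1KO and 16.3 TPM in control (−1.70). Its neighbour Cyp26c1 had log2 ratios of 1.29 in DKO over Isl1CKO and −2.71 in Pou4f1KO over control. The mesenchyme homeobox gene Prrx2 was at 17.7 TPM in DKO and 5.71 TPM in Isl1CKO (1.48), and at 6.01 TPM in Pou4f1KO and 12.8 TPM in control (−0.98). Sulf1, which encodes a heparan sulfatase, was at 57.1 TPM in DKO and 32.1 TPM in Isl1CKO (0.81), and at 25.3 TPM in Pou4f1KO and 50.4 TPM in control (−0.97). Snai1, a zinc-finger factor gene of mesenchyme, had 0.87 and −0.92, and S100a9, a neutrophil gene, 1.11 and −0.81, for the same ratios. In each of these genes DKO and control were the higher library of their pair.

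Pou4f1KO against control uses a second pair of libraries, none of which is DKO or Isl1CKO, and so measures the Pou4f1 label again without the Isl1 label. Over the 15049 genes with at least 1 TPM in any of the 4 libraries, 107 (0.711%) were at least 2-fold lower and 30 (0.199%) at least 2-fold higher in both pairs; 260 (1.73%) were lower and 147 (0.977%) higher in Pou4f1KO against control. Over the same genes the 131 higher and 185 lower in DKO are 0.87% and 1.23%, and over the 14678 genes compared first, Pou4f1KO against control had 100 higher (0.681%) and 245 lower (1.67%). The 107 are 57.8% of the 185 genes lower in DKO and 41.2% of the 260 lower in Pou4f1KO. The 30 are 22.9% of the 131 genes higher in DKO and 20.4% of the 147 higher in Pou4f1KO. Among the 185 lower genes 166 (89.7%) had a ratio below 0 in the second pair, against 46.1% of all compared genes. Among the 131 higher genes 72 (55.0%) had a ratio above 0, near the 53.9% of all compared genes. Under pan-neuronal scaling, where the median of the second pair became −0.23, 91.9% of the lower genes were below 0, against 84.3% of all compared genes, and 48.1% of the higher genes were above 0, against 15.7%. Pearson's r of the log2 ratios of both pairs was 0.42 across 15049 genes and 0.51 across the 12099 genes with at least 5 TPM in some library; genes are not independent replicates, and this is a description.

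The 185 lower genes had a median of −1.33 in DKO over Isl1CKO and −1.17 in Pou4f1KO over control, and the 131 higher genes had 1.17 and 0.11 for the same ratios. For these 131 genes the median of Isl1CKO over control was −0.50 and that of DKO over control 0.67; for the 185 lower genes these were −0.13 and −1.56. Each of these ratios shares a library with DKO over Isl1CKO and is given beside it only. Among the genes past 2-fold in DKO against Isl1CKO alone, 101 were higher and 78 lower, and 42 and 59 of them had the same sign in the second pair. Large neuronal members of that kind on the lower side, chosen after their values were seen, were Sncg, which encodes gamma-synuclein, at 404 TPM in DKO and 941 TPM in Isl1CKO (−1.22, and −0.74 in Pou4f1KO over control), and Adam11, at 91.7 TPM in DKO and 191 TPM in Isl1CKO (−1.05, and −0.76).

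**Figure D3:**
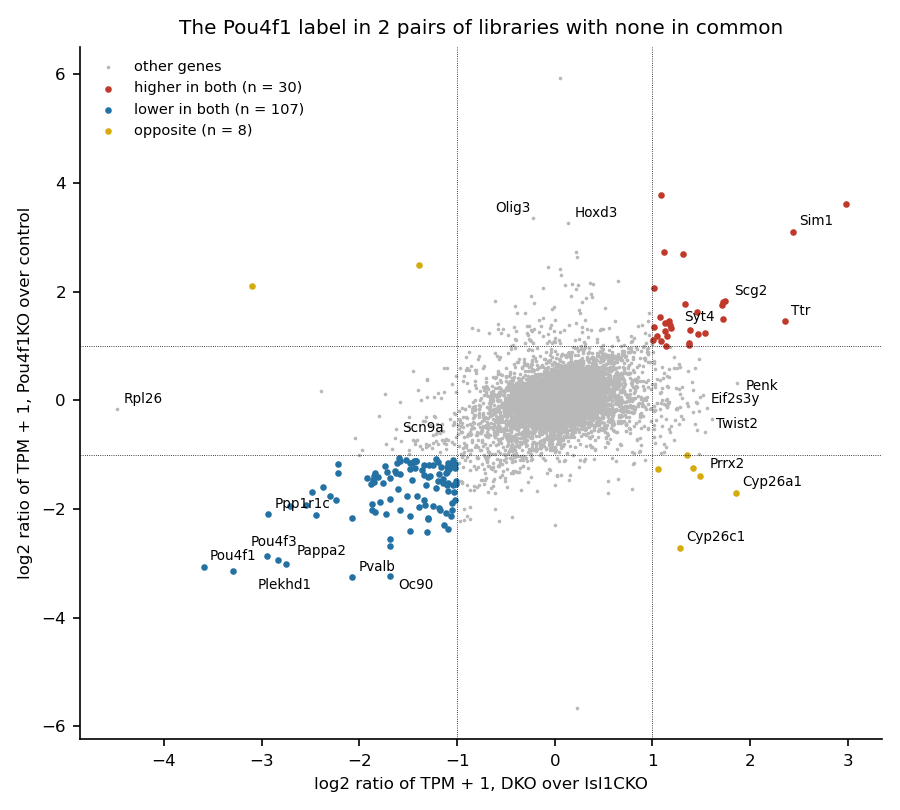
Each point is 1 of 15049 genes, with its log2 ratio of TPM + 1 for DKO over Isl1CKO on the x axis and for Pou4f1KO over control on the y axis; dotted lines mark 2-fold. The 107 genes lower in both (blue) include Pou4f1, Pou4f3, Pappa2 and Pvalb, the 30 higher in both (red) include Sim1, Scg2 and Syt4, and 8 genes (yellow) passed 2-fold in opposite directions.

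Markers of other cells in the dissected tissue moved with both sides. Of 32 listed otic epithelium genes 31 were measured, and 13 were lower and 2 higher in DKO, with a median of −0.93 and a summed level of 553 TPM in DKO and 851 TPM in Isl1CKO. Oc90, which encodes the main otoconial matrix protein, was at 35.0 TPM in DKO and 115 TPM in Isl1CKO (−1.69), and Otol1, the gene of otolin, a collagen-like protein of the inner ear, at 11.8 and 35.4 TPM in DKO and Isl1CKO (−1.51). The tight junction gene Cldn6 was at 20.5 TPM in DKO and 68.3 TPM in Isl1CKO (−1.69), and the epithelial adhesion gene Epcam at 13.7 TPM in DKO and 51.8 TPM in Isl1CKO (−1.84). Of 23 surface ectoderm and epithelial genes 16 were measured, all 16 had ratios below 0, 9 were lower and none higher, with a median of −1.06 and a summed level of 100 TPM in DKO and 267 TPM in Isl1CKO. No measured marker of either list was at 0 in DKO. The medians of these lists in Pou4f1KO over control were −1.20 and −2.03, with 20 and 15 members lower.

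Of the 185 lower genes, 22 stood on a list of other cells, 13 of them on the otic epithelium list and 9 on the surface ectoderm list, which share members. Of the 107 genes lower in both pairs, 21 stood on such a list and 86 on none. Of all 14678 compared genes, 14489 stood on none of these lists. Listed genes were a larger share of the lower genes than of all compared genes. The lists were chosen with earlier results of these data known, so this share is a description and no test. The lists are not exhaustive: Cldn22, Cldn24, Ush1c and Otogl are on none of them. Part of the otic list is also made in neurons or glia, such as Sox10, which was at 147 TPM in DKO and 145 TPM in Isl1CKO. The otic epithelium genes Tbx1, a T-box factor gene (33.8 TPM in DKO, 13.1 TPM in Isl1CKO, 1.30), and Bmp4, a signalling ligand gene (5.60 and 1.92 TPM in DKO and Isl1CKO, 1.18), were higher. The part of epithelial content in the ratios of neuronal genes was not tested. Hmx3 and Hmx2, neighbours on chromosome 7, are on the otic or the visceral and motor list, and Hmx3 is itself a lower member of the otic list.

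The higher side moved with mesenchyme, endothelium and Y-linked genes. Of 26 measured mesenchyme genes (31 listed) 7 were higher and none lower, with a median of 0.75; 23 had ratios above 0, and no measured member was at 0 in DKO. Twist2, a bHLH factor gene of mesenchyme, was at 8.61 TPM in DKO and 2.30 TPM in Isl1CKO (1.54), Pdgfra, which encodes a PDGF receptor, at 17.5 and 6.83 TPM in DKO and Isl1CKO (1.24), and the collagen gene Col1a1 at 25.2 and 10.1 TPM in DKO and Isl1CKO (1.24). The summed level was 2549 TPM in DKO and 2506 TPM in Isl1CKO, of which Vim, which many cell types make, was 1652 TPM in DKO and 1896 TPM in Isl1CKO. All 20 endothelial genes had ratios above 0, with a median of 0.60 and a summed level of 259 TPM in DKO and 160 TPM in Isl1CKO. Cldn5, an endothelial tight junction gene (1.16), and Tek, which encodes TIE2 (1.10), passed 2-fold. In Pou4f1KO over control these medians were −0.33 and −0.15, and in Isl1CKO over control, which shares a library, −0.49 and −0.39. Of the 131 higher genes, 15 stood on a list of other cells, 7 of them on the mesenchyme list, and 116 on none. Of all 14678 compared genes, 14489 stood on none, so listed genes were a larger share of the higher genes. This too is a description only, since the lists were chosen with earlier results of these data known. The part of such cells in the other ratios was not tested.

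The 4 measured Y-linked genes were all higher in DKO than in Isl1CKO. Eif2s3y was at 34.5 TPM in DKO and 11.6 TPM in Isl1CKO (1.49), and at 36.3 TPM in Pou4f1KO and 34.6 TPM in control. Isl1CKO was thus the library that stood apart for this gene. Kdm5d had a log2 ratio of 1.44 and Uty and Ddx3y of 1.15 each. The sex-linked list, Xist included, had a median of −1.44 in Isl1CKO over control and −0.24 in DKO over control. Xist, the X-inactivation RNA, was at 127 TPM in DKO and 195 TPM in Isl1CKO (−0.62). Y-linked genes and Xist were both measured in DKO and in Isl1CKO. In Pou4f1KO over control the 4 Y-linked ratios lay between −0.12 and 0.07. Only these 4 of the 131 higher genes lie on chromosome Y. The part of the mix of sexes in other ratios was not tested.

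**Figure D4:**
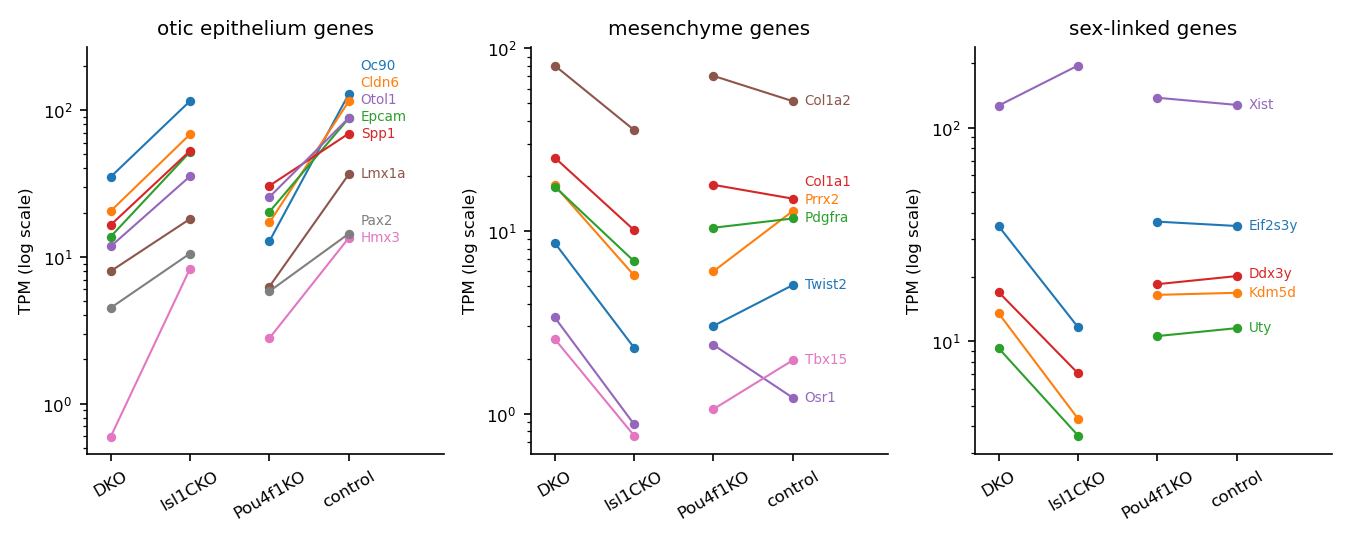
TPM on a log scale in the DKO, Isl1CKO, Pou4f1KO and control libraries for genes of otic epithelium (left), mesenchyme (middle) and the sex-linked list (right), with lines joining the libraries of a pair. The otic genes shown were lower in DKO and in Pou4f1KO, whereas the mesenchyme and Y-linked genes were higher in DKO than in Isl1CKO and mostly flat or lower in Pou4f1KO than in control, with Col1a2, Col1a1 and Osr1 slightly higher there.

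Further markers gave mixed values. Of 16 choroid plexus genes 9 were measured; Ttr and the secreted BMP and Wnt modulator gene Sostdc1 (1.36) were higher and none lower, with a median of 0.82 and a summed level of 82.6 TPM in DKO and 34.1 TPM in Isl1CKO. Ttr alone was 44.8 TPM of the first sum and 7.92 TPM of the second, and Tmem72 was at 0 in DKO and Folr1 at 0 in Isl1CKO. Of 18 measured neural tube and hindbrain factors (50 listed) 2 were higher, Sim1 and Nkx6-1 (2.495 TPM in DKO, 0.203 TPM in Isl1CKO, 1.54). The 3 lower ones were Skor2 (0.192 TPM in DKO, 4.01 TPM in Isl1CKO, −2.07), Pax2 (−1.07) and Neurog3 (−1.04). Sim1 is itself a marker on that list, and Pax7 and En1 of it were at 0 in both DKO and Isl1CKO. Of 26 Hox genes 3 were measured, and none reached 2-fold (median 0.21). Glia and neural crest (18 measured, median 0.20), cartilage and muscle (18, 0.12), erythroid (15, 0.14) and macrophage genes (17, 0.13) had no member past 2-fold. Of 9 measured visceral and motor neuron factors 2 were lower, Hmx2 (−1.85) and Tbx2 (−1.46), and the median was −0.03, or 0.04 under pan-neuronal scaling.

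**Figure D5:**
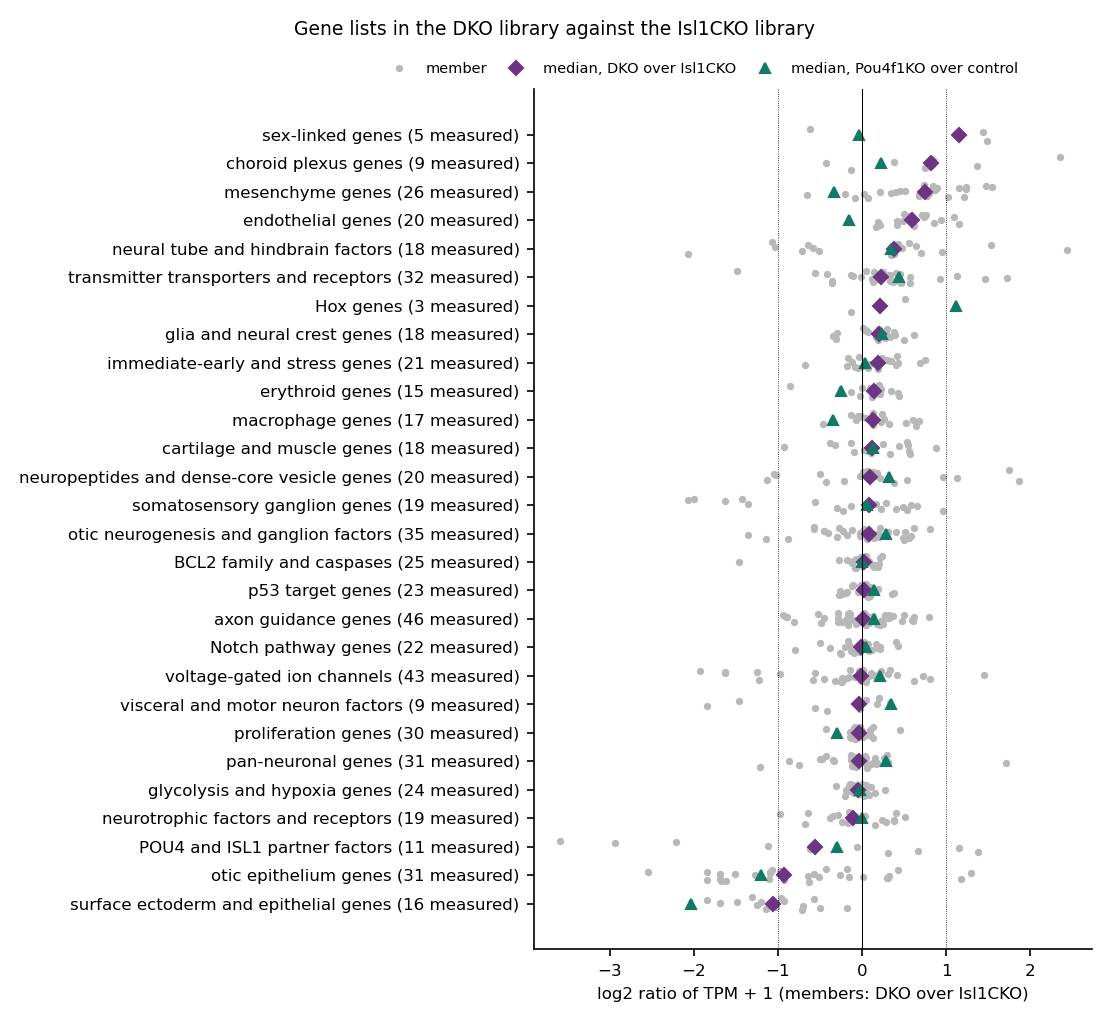
Log2 ratios of TPM + 1 for 28 gene lists, 1 row each, sorted by median; grey points are members in DKO over Isl1CKO, purple diamonds their medians and green triangles the medians in Pou4f1KO over control, with dotted lines at 2-fold. Most neuronal lists lie near 0, and the otic epithelium (−0.93) and surface ectoderm (−1.06) lists lie low for both. The mesenchyme (0.75), choroid plexus (0.82), endothelial (0.60) and sex-linked (1.15) lists lie above 0.5 only for DKO over Isl1CKO in these libraries.

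Some large ratios stand on rows that share sequence or position with another gene and are uncertain. The ribosomal protein gene Rpl26 was at 34.9 TPM in DKO and 802 TPM in Isl1CKO (−4.48), but it overlaps Gm15772, and their sum had a log2 ratio of −0.02. Likewise Rnaset2a (−2.39) summed with Rnaset2b had 0.07, and the histone gene H2ac19 (2.98) summed with H2ac18 had 0.25. In all, 32 of the lower and 29 of the higher genes stood on repeated or overlapping rows, and 153 lower and 102 higher genes were left without such rows, a setting added after the data were seen. Without such rows 13227 of the 14678 compared genes were left. Repeated or overlapping rows were thus a larger share of the lower and of the higher genes than of all compared genes. Just inside the 2-fold limit lay Sall1 (−1.01) and Asb4 (1.0004), and just outside it Has3 (−0.99) and Dusp26 (0.998).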

How the data were processed

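RNA of 4 libraries, 1 per genotype label, was deposited as gene abundance tables. Per the submitters' processing notes, Trimmomatic, FastQC, HISAT2, SAMtools and StringTie were used with mm10; versions, order, settings and the annotation are not stated there. The authors computed TPM, per the file headers, a unit with the same total in every library. The deposited FPKM values, scaled for gene length and depth, served as an alternative. The deposited coverage, the mean read depth of a gene, was not scaled between libraries; its ratio to FPKM gave the aligned gigabases and was constant within 0.001 for 63.7% to 63.9% of rows. Read counts were not used, so no count test was run.

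Rows of one symbol were summed (260 symbols stood on more than 1 row), genes with at least 1 TPM in either library were kept, and log2 ratios of TPM + 1 were formed, DKO over Isl1CKO, with 2-fold as the limit. The code of this step was run on a copy of the Isl1CKO library in which well-expressed genes were given known fold changes, without noise. That checks the arithmetic only, not how reliable the reported ratios are. Gene types came from GENCODE M21, matched for 14368 of the compared genes. Members, gene lists and rules were chosen with earlier results of these data known. Genes named by rule were Pou4f1 and Isl1; the 15 lowest and 15 highest ratios; the 10 genes in each direction with the largest smaller ratio of both pairs; 6 with opposite signs; and up to 6 members of each list. Except for the list members, these genes needed at least 5 TPM in the higher library, a symbol that is no clone, predicted or small RNA name, and a row that neither repeats nor overlaps another; others were chosen after their values were seen. Alternatives were other pseudocounts, filters, scalings, fold limits and FPKM. Python 3.11.15, numpy 2.4.6, pandas 2.3.3 and matplotlib 3.10.9 were used. A few genes that these rules name are not reported here.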

Additional observations from a re-analysis of the deposited data

Results flagged for a closer look

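Some results had opposite signs in the pairs of libraries that differ by the Pou4f1 label. The retinoic acid-degrading enzyme genes Cyp26a1 and Cyp26c1, neighbours on chromosome 19, had log2 ratios of 1.85 and 1.29 in DKO over Isl1CKO and of −1.70 and −2.71 in Pou4f1KO over control. Cyp26c1 stood at 20.8 TPM in DKO and 7.95 TPM in Isl1CKO, and at 2.16 TPM in Pou4f1KO and 19.7 TPM in control. For both genes DKO and control were high, and Isl1CKO and Pou4f1KO were low. The gene Cstdc5 had a log2 ratio of 1.48 in DKO over Isl1CKO and of −1.39 in Pou4f1KO over control, with levels of 3.95, 0.773, 0.570 and 3.11 TPM in DKO, Isl1CKO, Pou4f1KO and control.

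The median of the mesenchyme genes was 0.75 in DKO over Isl1CKO and −0.33 in Pou4f1KO over control. That of the endothelial genes was 0.60 in DKO over Isl1CKO and −0.15 in Pou4f1KO over control. With 1 library per genotype, none of these differences between the pairs was tested.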

How the results depend on the processing

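The counts depended on how low values were treated. Genes higher, lower, higher in both pairs and lower in both pairs numbered 131, 185, 30 and 107 as reported; 313, 346, 87 and 201 with a pseudocount of 0.1 TPM; 16, 55, 6 and 34 with a pseudocount of 5 TPM; and 32, 101, 8 and 63 with FPKM. A gene at 1 TPM had less than 1 FPKM in each library, so the added 1 weighed more with FPKM. With a filter of 5 TPM, 70 were higher and 123 lower. At 3-fold 10 were higher and 56 lower, and at 1.5-fold 519 were higher and 484 lower, with 132 and 265 in both pairs. Scaling by median ratios, by pan-neuronal genes or without haemoglobin and ribosomal protein genes moved no count by over 1.5 times. Of 28 lists, 3 had a median below −0.5 and 4 above 0.5; with a pseudocount of 5 TPM these were 1 and 2. Of 228 recomputed values of 38 named genes, 212 kept their side of 2-fold, 15 fell short of it, 1 passed it and 0 changed sign; of 252 list medians, 244 kept their side of ±0.5, 8 fell short of it, and those that changed sign were within 0.1 of 0. Settings without the lists of other cell types (116 higher, 163 lower) and without overlapping rows were added after the data were seen. No paired analysis was possible because each genotype has 1 library. The depth, 13.6 to 16.6 gigabases, limits genes near 1 TPM, and the spread between embryos is unknown.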

Other observations

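A few single genes outside the lists were picked after their values were seen and are given as values, with no count over a group. Dio3, which encodes the deiodinase that inactivates thyroid hormone, was at 3.46 TPM in DKO and 12.3 TPM in Isl1CKO (log2 ratio −1.57), and at 10.6 TPM in Pou4f1KO and 18.5 TPM in control (−0.75). Its antisense neighbour Dio3os was at 0.553 TPM in DKO and 3.37 TPM in Isl1CKO (−1.49). Among genes known from neutrophils, S100a8 was at 4.64 TPM in DKO and 1.06 TPM in Isl1CKO (1.45), and S100a9 at 7.82 TPM in DKO and 3.07 TPM in Isl1CKO (1.11). In Pou4f1KO over control these 2 genes had the opposite sign, −0.55 for S100a8 and −0.81 for S100a9. Ngp was at 2.43 TPM in DKO and 0.410 TPM in Isl1CKO (1.28). Ltf, at 1.23 TPM in DKO, and Lcn2, at 1.21 TPM in DKO, were listed at 0 in Isl1CKO. The pigment-cell gene Mreg, which encodes melanoregulin, was among the most abundant lower genes, at 57.6 TPM in DKO and 194 TPM in Isl1CKO (−1.74), and at 94.4 TPM in Pou4f1KO and 221 TPM in control (−1.22). Rgs4, a regulator of G-protein signalling, was an abundant gene on the higher side, at 453 TPM in DKO and 225 TPM in Isl1CKO (1.01), and at 419 TPM in Pou4f1KO and 227 TPM in control (0.88).

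Genes past 2-fold sometimes stood next to each other. Among the lower genes 10 neighbouring pairs lay within 50 kb of each other, among them Hmx3 and Hmx2, Scn9a and Scn7a, Cldn6 and Cldn9, Cldn4 and Cldn3, and Ush1c and Otog. Among the higher genes there were 4, namely Cyp26c1 and Cyp26a1, S100a8 and S100a9, Uty and Ddx3y, and Stfa2l1 and Cstdc4. Such pairs were not counted over all compared genes, so these numbers have no background and are a description only.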
